A study of Mus musculus with 24 samples.

Results

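Perivascular macrophages are the long-lived macrophages that lie along the vessels of the brain, between the vessel wall and the glial lining. They take up proteins and pigments through scavenger receptors such as Mrc1 (CD206) and Cd163, depend on the receptor Csf1r, and differ from microglia, the macrophages of the tissue itself, by low P2ry12, Tmem119 and Siglech. Their known programmes include iron and heme handling, chemokine release and, in a smaller subset, antigen presentation on MHC class II molecules.

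Here they were selected on UMIs (unique molecular identifiers, which count single RNA molecules): a cell with at least 1000 UMIs, at least 500 genes and at most 20% mitochondrial UMIs was a member when Mrc1 and Pf4 together reached 3 UMIs, Csf1r reached 1, and P2ry12, Tmem119 and Siglech together did not exceed 2. Of 103715 cells past the filter, 826 were members (0.796%). The cells came from primary motor cortex of Fos-CreER::Ai9 mice and dorsal striatum of Arc-CreER::Ai9 mice, lines in which 4-hydroxytamoxifen (4-OHT) marks neurons active at that time through a Cre under the Fos or the Arc promoter. Mice were trained to reach with a forelimb for 2 days (early) or 8 days (late), control mice had 4-OHT and no training, and tissue was taken 3 days after labelling. Ages are not given in the labels used here. All groups thus carried the Ai9 reporter, a CreER driver and 4-OHT, and because each region had its own driver line, region and line cannot be told apart. Each pool held tissue of 2 mice, labelled M and F, with 2 pools for each of the 6 groups and a library for each hemisphere. Living slices were cut, the dissected tissue was digested with papain, and dead cells were removed before droplets were made.

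Of 24 libraries 23 were read; 1 of striatum control pool 1 (right side) was not analysed here. The libraries held 541 to 10030 barcodes and 5260446 to 30470621 UMIs, and 469 to 7087 cells of each passed the filter. Members numbered 70 to 189 a pool in motor cortex and 30 to 55 in striatum, with 76593 to 643406 member UMIs a pool. Each pool was compared as 1 sample, and p-values measure the spread between pools of pooled mice. In motor cortex control pool 1, Xist, the transcript of the inactive X chromosome, stood at 0.197 CPM (counts per 1000000 UMIs) over all cells, against 318 to 862 CPM in the other 11 pools, which goes against its label of M and F. The counts and shares by region are therefore also given without it. Of the members, 29 had a barcode that also occurred in another library, and 0 barcodes were carried by members of more than 1 library.

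The cells carried markers of border macrophages. No marker used here tells perivascular from other border macrophages, so their place along vessels was not tested. Pf4, a platelet-type chemokine used by the rule, was found in 98.8% of members and Mrc1 in 94.9%, with medians of 10 and 5 UMIs a cell, as the rule requires. Markers that the rule did not use were also present: Ms4a7, a membrane protein of border macrophages, had a UMI in 83.8% of members and F13a1, the coagulation factor XIII A chain, in 84.3%. Median depth was 2476 UMIs and 1084 genes a member, against 1994 UMIs in 13488 microglia-gate cells (P2ry12, Tmem119 and Siglech at 3 UMIs or more together, Csf1r at 1 or more, Mrc1 and Pf4 at 2 or fewer). At the edges of the rule, 24 members had exactly 3 UMIs of Mrc1 and Pf4 and 31 cells failed only by having 2, 181 members had a single Csf1r UMI and 110 cells failed only by having none, and 55 members had 2 microglial UMIs while 17 cells failed only by having 3. Scrublet scores marked 80 members as likely doublets.

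Several classes of blood and brain markers were rare in the members: none of the monocyte, neutrophil, lymphocyte, dendritic, endothelial, mural, fibroblast or oligodendrocyte precursor markers reached 5% of members, while 3 of 6 astrocyte, 1 of 6 oligodendrocyte, 3 of 7 neuron, 1 of 4 erythroid and 5 of 7 microglia markers did. Erythroid markers summed to 67.8 to 8141 CPM in motor cortex pools and 23.9 to 99.8 CPM in striatum pools. Monocyte markers Ly6c2, Plac8 and Chil3, neutrophil markers S100a9, Ly6g and Retnlg, and lymphocyte markers Cd3e, Cd3d, Nkg7, Cd79a and Ms4a1 had no UMI in any member. Ccr2, the chemokine receptor of monocytes, had a UMI in 1 of 826 members (0.121%), and in none after each was thinned to 1000 UMIs. Neuronal RNA was present at a low level: the 7 neuron markers summed to 252 to 1851 CPM in motor cortex pools and 289 to 1498 CPM in striatum pools, close to the 641 to 2877 CPM and 390 to 1321 CPM of the microglia gate. The 7 microglia markers summed to 308 to 644 CPM in motor cortex members and 979 to 1199 CPM in striatum members; the rule caps 3 of them, so nothing is read from the difference.

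The promoters shown here belong to some of the genes called higher in motor cortex members. They are shown because their windows hold a match, so they are not a sample of the called genes. In each, the 250 bases before the RefSeq start (GRCm38.p6) are printed along the gene's strand, and capitals mark a match to a short motif. For interferon-response genes the motif was GAAANNGAA on either strand, a core of the element bound by interferon regulatory factors, and 7.13% of 32851 RefSeq promoters of the same length hold it. The windows are Ifit1 at chr19:34640639-34640888, plus strand, with 3 matches starting 109, 103 and 84 bases upstream, the first 2 overlapping, Isg15 at chr4:156200819-156201068, minus strand, with 3 overlapping matches, Rsad2 at chr12:26456453-26456702, minus strand, with 1 match, and Cxcl10 at chr5:92348890-92349139, minus strand, with 1 match 213 bases upstream. For heat-shock genes it was GAANNTTC, which reads the same on both strands and occurs in 6.69% of promoters. Hspa1a at chr17:34972157-34972406, minus strand, had 1 match and Hspb1 at chr5:135887669-135887918, plus strand, had 2. The Hspa1b window differed from that of Hspa1a at 3 of 250 bases. Oasl1 had no match to the interferon motif, and Hsph1, another chaperone gene called higher in motor cortex, had none to the heat-shock motif in either of its 2 RefSeq windows. Of the 56 genes higher in motor cortex members whose mean was above that of neuron-gate cells and that were not called the same way in microglia, or not tested there, 45 had a RefSeq window: 7 (15.6%) held the interferon motif and 6 (13.3%) the heat-shock motif, beside 8.18% and 7.73% of all genes in the table. Of the 16 such genes higher in striatum members, 12 had a window: 1 (8.33%) held the interferon motif and 0 the heat-shock motif. No test was made of these shares.
Ifit1: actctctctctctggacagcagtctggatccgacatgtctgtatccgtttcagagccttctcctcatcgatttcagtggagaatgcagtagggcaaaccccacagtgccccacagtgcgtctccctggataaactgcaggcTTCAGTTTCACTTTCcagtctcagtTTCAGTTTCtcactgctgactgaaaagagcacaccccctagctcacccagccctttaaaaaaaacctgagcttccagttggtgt
Isg15: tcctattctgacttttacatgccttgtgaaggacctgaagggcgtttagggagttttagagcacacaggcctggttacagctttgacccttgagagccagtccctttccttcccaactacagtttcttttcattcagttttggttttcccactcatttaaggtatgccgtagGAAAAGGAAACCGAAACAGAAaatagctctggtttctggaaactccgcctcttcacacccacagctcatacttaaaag
Rsad2: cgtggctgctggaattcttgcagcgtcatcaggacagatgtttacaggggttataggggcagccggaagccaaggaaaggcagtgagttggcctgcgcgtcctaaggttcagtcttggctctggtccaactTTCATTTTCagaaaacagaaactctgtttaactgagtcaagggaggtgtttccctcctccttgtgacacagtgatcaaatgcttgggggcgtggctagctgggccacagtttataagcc
Cxcl10: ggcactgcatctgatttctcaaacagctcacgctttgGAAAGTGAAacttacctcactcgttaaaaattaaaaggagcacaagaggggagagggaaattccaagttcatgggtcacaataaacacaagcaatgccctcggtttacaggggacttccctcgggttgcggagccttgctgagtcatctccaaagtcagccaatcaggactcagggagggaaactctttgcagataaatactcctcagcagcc
Hspa1a: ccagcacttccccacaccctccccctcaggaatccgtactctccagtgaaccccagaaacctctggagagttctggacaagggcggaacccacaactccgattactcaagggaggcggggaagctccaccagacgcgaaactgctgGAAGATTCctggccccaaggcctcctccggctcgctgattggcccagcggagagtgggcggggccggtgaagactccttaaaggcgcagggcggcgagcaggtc
Hspb1: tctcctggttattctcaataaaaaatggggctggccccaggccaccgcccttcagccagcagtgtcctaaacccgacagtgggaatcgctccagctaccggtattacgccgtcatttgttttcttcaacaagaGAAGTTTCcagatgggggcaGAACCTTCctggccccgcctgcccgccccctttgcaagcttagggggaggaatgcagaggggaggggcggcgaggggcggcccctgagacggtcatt

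Against microglia the members were described without a test, since the rule separated the groups. Of 1429 genes at 100 CPM or more in the summed members, 286 were higher than in microglia-gate cells in all 12 pools. The widest gap was in F13a1, at 950 CPM in members and 0.279 CPM in microglia, a mean log2 difference of 11.30 over pools (range 8.50 to 13.40). Lyve1, a hyaluronan receptor, stood at 551 against 0.155 CPM, and Cd163, the hemoglobin scavenger receptor, at 251 against 0.186 CPM. The C-type lectins Clec4n, Clec10a, Mgl2, Cd209f and Clec12a were among the 20 widest gaps. Ccl24, an eosinophil-attracting chemokine, reached 4066 CPM against 9.84 CPM. Cd209f had no UMI in the microglia gate at all. Bmp2, a secreted growth factor, and Cd38, an enzyme that breaks down NAD, were also among the 20.

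**Figure D1:**
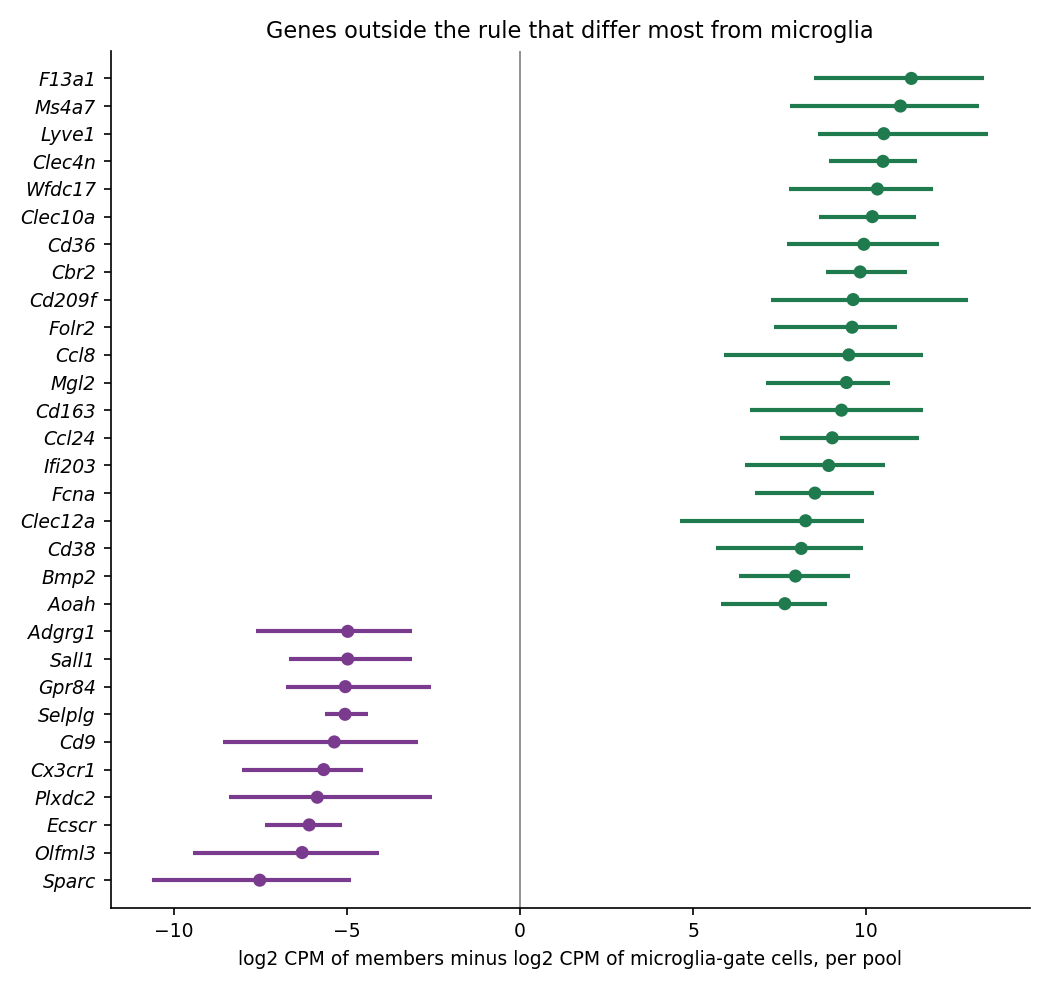
Log2 CPM of members minus log2 CPM of microglia-gate cells (x axis) for the 20 genes furthest above and the 10 furthest below microglia among genes the rule did not use. Points are means of 12 pools and lines the range over pools. F13a1 leads at a mean of 11.30, and Sparc is furthest below at -7.52.

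Of 1503 genes at 100 CPM or more in microglia, 361 were lower in members in every pool. Sparc, a matrix protein that microglia secrete, fell furthest on this list, at 24.4 CPM in members and 2934 CPM in microglia. Cx3cr1, the fractalkine receptor, stood at 32.9 against 1668 CPM, and Sall1, a transcription factor that maintains microglial identity, at 0.421 against 112 CPM. The complement genes C1qa and C1qb, used by both kinds of macrophage, did not separate them: C1qa lay at 3810 to 7088 CPM in member pools, with mean microglia levels of 6200 CPM in motor cortex and 6044 CPM in striatum. Apoe, the lipid carrier, had a UMI in every member and lay at 26466 to 61480 CPM.

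Members took a larger share of cells in motor cortex than in striatum. In the 6 motor cortex pools they made up 1.60% and 0.883% of passing cells in control, 1.28% and 0.864% in early and 1.36% and 1.03% in late. In the striatum pools the shares were 0.504% and 0.386% in control, 0.336% and 0.464% in early and 0.470% and 0.542% in late. Every motor cortex pool lay above every striatum pool. The means were 1.17% ± 0.292 and 0.450% ± 0.0762 (SD, n = 6 pools each), a difference of 0.719 percentage points (exact permutation test, two-sided, p = 0.00216, the smallest this design allows, and 0.00433 adjusted over the 4 shares tested by region). Without motor cortex control pool 1 the difference was 0.633 points (exact permutation p = 0.00433). In the 2 sequencing batches that held pools of both regions, the shares were 0.864% against 0.464% and 1.03% against 0.542%. Neuron-gate cells made up 25.3% to 58.9% of cells in motor cortex pools and 33.0% to 47.7% in striatum pools, and their part in the difference was not tested.

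Set against microglia, the regions overlapped in their pools. There were 4.94 to 10.4 members per 100 microglia-gate cells in the motor cortex pools and 2.92 to 12.9 in the striatum pools. The mean log2 ratio was -3.79 ± 0.380 in motor cortex and -4.18 ± 0.748 in striatum (SD, n = 6 pools each), and the difference of 0.38 did not pass (exact permutation test, p = 0.288). Without motor cortex control pool 1 it was 0.28 (exact permutation p = 0.459). Microglia themselves ranged from 3.64% of cells in striatum late pool 1 to 27.5% in motor cortex late pool 1.

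**Figure D2:**
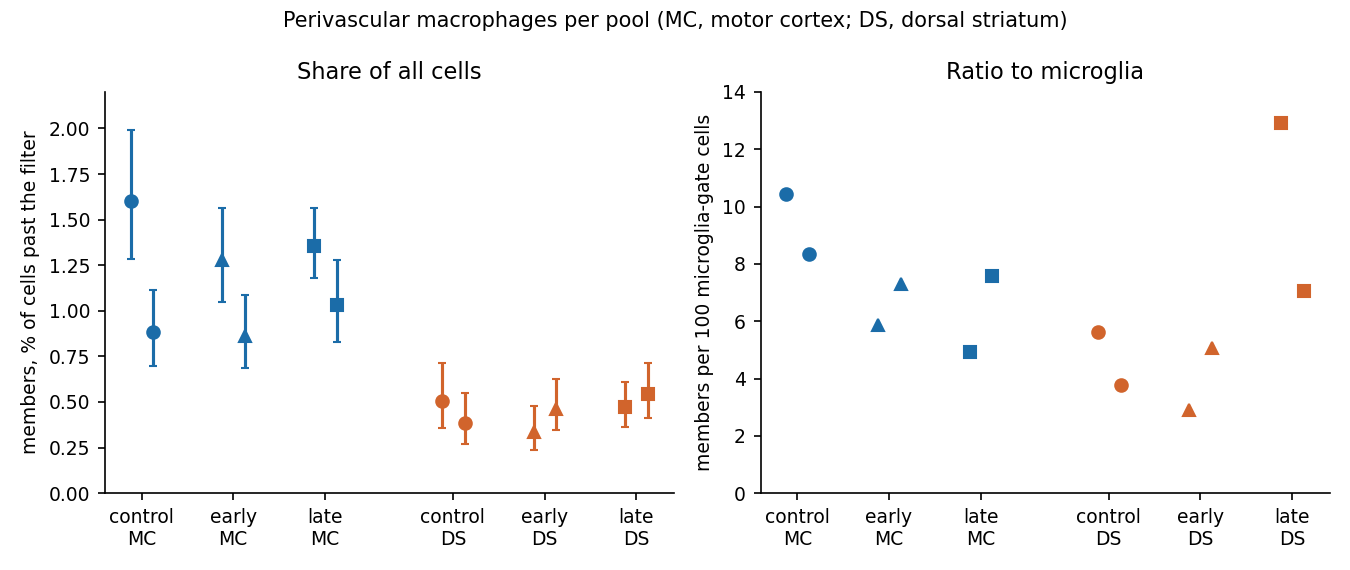
Members as a percentage of cells past the filter (left, with Wilson 95% intervals, which cover counting error only) and per 100 microglia-gate cells (right), 1 point for each of 12 pools by stage. On the left all motor cortex pools (0.864% to 1.60%) sit above all striatum pools (0.336% to 0.542%), and on the right the regions overlap.

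By stage, 2 pools against 2 cannot give an exact permutation p below 0.333, so no difference could pass. In striatum both late pools (12.9 and 7.06 members per 100 microglia-gate cells) lay above both control pools (5.64 and 3.76) and both early pools (2.92 and 5.07). In motor cortex both late pools (4.94 and 7.56) lay below both control pools (10.4 and 8.35), and so did both early pools (5.88 and 7.31). As a share of all cells, late and control pools overlapped in both regions.

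The comparison between regions, with stage and kit class in the model, tested 3276 genes with edgeR's quasi-likelihood test and called 137 of them (4.18%; adjusted p below 0.05, Benjamini-Hochberg), 81 higher in motor cortex. Of the 135 outside the rule, 58 had a higher level in neuron-gate cells than in members of the same region, and 49 of these were called in the same direction in microglia-gate cells. They include Ppp1r1b (DARPP-32) and Meis2, genes of striatal projection neurons, and Cck, a cortical neuropeptide. Ppp1r1b ran from 6.22 to 83.7 CPM in motor cortex members and from 136 to 522 CPM in striatum members, with means of 126 and 1950 CPM in neuron-gate cells. Cck had 353 UMIs in motor cortex members and none in striatum members, at least 41.3-fold higher against a floor of 3 UMIs over the group. The part of neuronal RNA in these calls was not tested. When members with any Snap25 or Syt1 UMI were left out, 60 genes were called, 42 of them higher in motor cortex.

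The other 77 genes had their higher level in members, 59 higher in motor cortex and 18 in striatum, and 5 of the 77 were called the same way in microglia. The 59 include the globins Hba-a1, Hba-a2 and Hbb-bs, and 97.3% of all globin UMIs came from 3 motor cortex cells described with the stages. Without those cells 136 genes were called, 133 of them shared with the 137. In 27 of the 72 that remain the pools of the regions did not overlap, as in 62 of all 3276 genes tested (1.89%); called genes were picked for their difference, so nothing is read from that gap. The next paragraphs give calls by gene list, and Fos and Ccr1, called the same way in microglia, and Stmn1, at a higher level in neurons, are not among the 72. Positions are those of GENCODE vM21 on GRCm38.

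Of 12 interferon-response genes tested, 3 (Ifit1, Isg15 and Rsad2) were called higher in motor cortex members and 0 lower, beside 4.18% of all genes called in either direction. Ifit1, which binds foreign RNA caps (ENSMUSG00000034459, chr19:34640871-34650009), stood at 57.3 and 236 CPM in control, 371 and 928 in early and 225 and 463 in late pools of motor cortex. In striatum it was listed at 0 in 4 pools and at 7.97 CPM in early pool 2 and 16.0 CPM in late pool 2. All motor cortex pools were above all striatum pools, with 564 UMIs against 3. The ratio of summed CPM was 66.0 (exact 95% interval 22.5 to 321, counting error only), and the fitted log2 change was 6.73 ± 0.61 (SE, edgeR adjusted p = 4.95e-06). Here and below the SE of a fitted log2 change is that change, without its sign, divided by the square root of its F statistic. It is worked back from the test and does not measure the counting error of the 3 striatum UMIs, which the interval gives.

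Rsad2, which encodes the antiviral enzyme viperin, ranged from 57.3 to 525 CPM in motor cortex members and 0 to 48.2 CPM in striatum members (log2 change 5.27 ± 0.84 SE). Oasl1, an oligoadenylate synthetase-like protein named here after its values were seen, ran from 115 to 694 CPM against 0 to 88.3 CPM (4.53 ± 0.53). In both genes the regions did not overlap. Isg15, a ubiquitin-like modifier, overlapped, from 216 to 978 against 71.7 to 337 CPM (1.93 ± 0.29). Cxcl10, the chemokine named for its induction by interferon gamma, ran from 370 to 1597 against 56.2 to 295 CPM (2.61 ± 0.30). These 4 passed with edgeR adjusted p from 3.77e-05 to 0.00107.

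In microglia of the same pools the log2 change was 0.09 for Oasl1, 0.17 for Isg15 and 0.08 for Cxcl10, none called, and Ifit1 and Rsad2 were too low there to be tested. Of the 18 interferon genes listed, the 12 tested had a median log2 change of 0.69 beside 0.01 over all genes tested. The most abundant members of the list, Ifitm3 (-0.18), Bst2 (0.23) and Ifi27l2a (0.47), did not pass. Ifnb1, interferon beta itself, named after its values were seen, had 174 UMIs in motor cortex members, 517.6 CPM in early pool 2 and 288 CPM in late pool 2 but 8.81 to 59.0 CPM in the other 4, and none in striatum. Of its UMIs, 57.5% came from 5 cells, and its call was lost in 11 of 23 alternatives.

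UMIs of these genes were found in some members and not in others, and a cell with 0 UMIs may still express a gene at this depth. After thinning to 1000 UMIs, 100 of 586 motor cortex members (17.1%) and 9 of 240 striatum members (3.75%) had a UMI of Ifit1, Rsad2 or Oasl1. By pool the share was 7.59% to 31.0% in motor cortex and 0% to 10.0% in striatum, and without thinning 18.8% to 35.2% and 0% to 22.0%. For Ifit1 alone, the thinned share was 6.66% in members, 0.282% in microglia and 0.0322% in neurons. Over all members, 41 had at least 2 of the 3 genes. Within motor cortex, 59 of the 100 members with any of them had Isg15 and 40 had Cxcl10, against 11.1% and 12.1% of the other 486. Lyve1 was found in 34 of the 100 and in 41.2% of the 486. The 9 striatum members with any of them are too few to describe by shares. These shares pool cells of 6 pools and carry no test.

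Chemokines and cytokines made up the next group, with 5 of 21 tested genes higher in motor cortex and 2 higher in striatum, Cxcl10 among the 5, and a median log2 change of 0.36, beside 4.18% called and a median of 0.01 over all genes tested. Ccl4, an inflammatory chemokine, ranged from 6211 to 14538 CPM in motor cortex members and 1375 to 5311 CPM in striatum members without overlap (1.54 ± 0.27 SE, edgeR adjusted p = 0.00177). Its near relative Ccl3 rose in the same direction (1.06 ± 0.17), as did the neutrophil attractant Cxcl2 (0.80 ± 0.18) and the monocyte attractant Ccl2 (0.61 ± 0.16). In microglia Ccl3 (-0.28) and Ccl4 (-0.23) did not pass. Ccl2 lost its call in 14 of 23 alternatives and Cxcl2 in 6.

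Ccl8, another monocyte attractant, went the other way. In striatum members it stood at 1593 and 932.5 CPM in control, 554 and 279 in early and 1876 and 465.6 in late pools. In motor cortex it lay between 66.8 and 215 CPM, below every striatum pool. The log2 change was -3.03 ± 0.28 (SE, edgeR adjusted p = 4.62e-06). Within the shared sequencing batches the log2 differences were -0.38 and -2.62. With thinning, 9.30% to 32.7% of striatum members a pool had a UMI and 3.70% to 9.38% of motor cortex members, with 0.0297% in microglia. Ccl6 was also higher in striatum (-1.53 ± 0.32), a call lost in 4 of 22 alternatives.

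**Figure D3:**
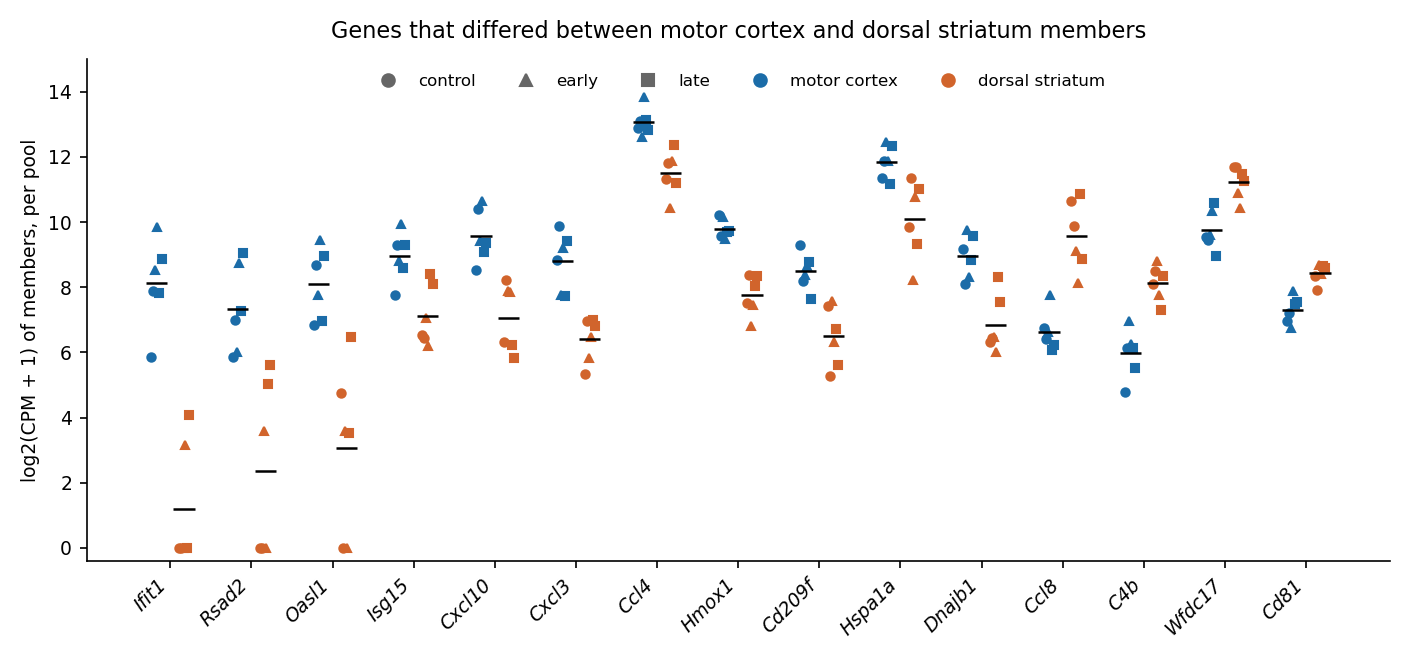
Log2(CPM + 1) of members in each of 12 pools for genes called between regions, with motor cortex in blue, striatum in orange, the stage as the symbol and black bars for means. Ifit1 separates the regions furthest (57.3 to 928 against 0 to 16.0 CPM), and Ccl8, C4b, Wfdc17 and Cd81 are higher in striatum.

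In the list of immediate-early and dissociation genes, 25 were tested, 6 were called higher in motor cortex and 1 lower (Fos), with a median log2 change of 0.20, beside 4.18% of all genes called in either direction. Of the 6, 5 encode chaperones, a grouping made after the calls were seen: Dnajb1 (2.24 ± 0.30 SE), Hspa1b (1.72 ± 0.30), Hspa1a (1.60 ± 0.28), Hsp90aa1 (1.11 ± 0.26) and Hspa8 (0.67 ± 0.15). The remaining gene, Atf3, is a stress-induced transcription factor (0.69 ± 0.17), and its call was lost in 10 of 23 alternatives.

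Hspa1a ranged from 2311 to 5601 CPM in motor cortex members and 299 to 2617 CPM in striatum members, so the regions overlapped. Hspa1a and Hspa1b are near-identical copies whose reads may be shared between them. In microglia Hspa1a (-0.19) and Dnajb1 (-0.20) did not differ in that direction. The calls of Hspa1a, Hspa1b, Hsp90aa1 and Hspa8 were lost without kit class, with the stricter cell filter and in kit class B pools alone. Dnajb1 lost its call only with the stricter cell filter. Of 23 alternatives, Hsp90aa1 lost its call in 6 and Hspa8 in 5. The highest edgeR adjusted p of Hspa1a over the 23 was 0.598. Hspb1, a small heat-shock protein outside the lists and named after its values were seen, was 3.05 ± 0.55 higher, found in 50 cells with 47.8% of its UMIs in 5 cells.

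Fos, the immediate-early transcription factor, was lower in motor cortex, at 269 to 486 CPM against 843 to 1849 CPM in striatum (-1.71 ± 0.15 SE, edgeR adjusted p = 4.57e-06). It was lower in microglia too (-1.15, adjusted p = 0.00701). Junb, Jund and Ier3, the most abundant of the list beside Hspa1a, did not pass (0.36, 0.08 and 0.67).

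Hmox1, heme oxygenase, which frees iron from heme (ENSMUSG00000005413, chr8:75093621-75100589), was higher in every motor cortex pool. It stood at 1190 and 752 CPM in control, 1131 and 713 in early and 824 and 841 in late pools there. In striatum it stood at 183 and 333, 111 and 175, and 264 and 321 CPM. The log2 change was 2.04 ± 0.21 (SE, edgeR adjusted p = 1.12e-05), within batches 2.00 and 1.38. Microglia changed by -0.52 and did not pass. No other of the 13 tested iron and heme genes was called, beside 4.18% of all genes called in either direction. The ferritin chains Ftl1 (0.42) and Fth1 (0.19), transferrin Trf (-0.22) and biliverdin reductase Blvrb (0.06) did not pass.

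Of 27 tested border-macrophage genes outside the rule, 4 were higher in motor cortex and 2 in striatum, with a median log2 change of 0.19, beside 4.18% called and a median of 0.01 over all genes tested. Cd209f, a C-type lectin, ran from 198 to 621 against 38.1 to 188.5 CPM (1.95 ± 0.23 SE, edgeR adjusted p = 3.98e-05), without overlap. Clec4n (0.91), Igfbp4 (0.99) and Ednrb (0.71) followed, with calls lost in 11, 2 and 16 of 23 alternatives. Wfdc17, a small secreted protein, was higher in striatum at 1379 to 3316 against 497 to 1542 CPM (-1.41), though within the shared batches by -0.10 and -2.29. The folate receptor Folr2 was higher there too (-0.70), a call lost in 14 of 23 alternatives. The core genes F13a1 (0.12), Ms4a7 (0.04) and Cbr2 (0.05) did not pass. On the scavenger list 13 genes were tested, with 1 called higher in motor cortex (Cd209f) and 1 in striatum (Folr2).

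C4b, the complement component C4, was higher in striatum members, at 158 to 443.5 against 26.4 to 124 CPM (-2.04 ± 0.26 SE, edgeR adjusted p = 8.86e-05). It was the only call among 14 tested complement and Fc receptor genes, beside 4.18% of all genes called in either direction. The most abundant lysosome genes, Lyz2 (-0.33), Ctsb (0.10), Ctsc (-0.15) and Ctsd (-0.22), did not pass.

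Beside the 4.18% called over all genes tested, the remaining lists are short and hold few calls. Lipid genes had 1 call each way (Plin2, a lipid-droplet coat, 0.70, and Pltp, a phospholipid transfer protein, -0.73, in 12 tested), receptors had 3 calls up in 14 (Il4ra 1.13, Ccr1 0.89 and Ednrb), and vessel and matrix genes had 1 of 7, Timp2, an inhibitor of matrix proteases (-0.73). Ccr1 was called in microglia as well (0.96). Of 23 alternatives, the call was lost in 11 for Plin2, 13 for Pltp, 2 for Il4ra, 12 for Ccr1 and 8 for Timp2. Transcription factors (14 tested), MHC class I (5) and MHC class II (4) had none, including Cebpb (0.57), Zeb2 (0.15), Spi1 (-0.02) and Maf (-0.09). Among 3 tested cell-cycle genes only Stmn1 was called (1.45), and Crybb1, of the microglia list, was higher in motor cortex (1.43). The Crybb1 call was lost in 8 of 23 alternatives and the Stmn1 call in 3, with 1 more reversed.

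**Figure D4:**
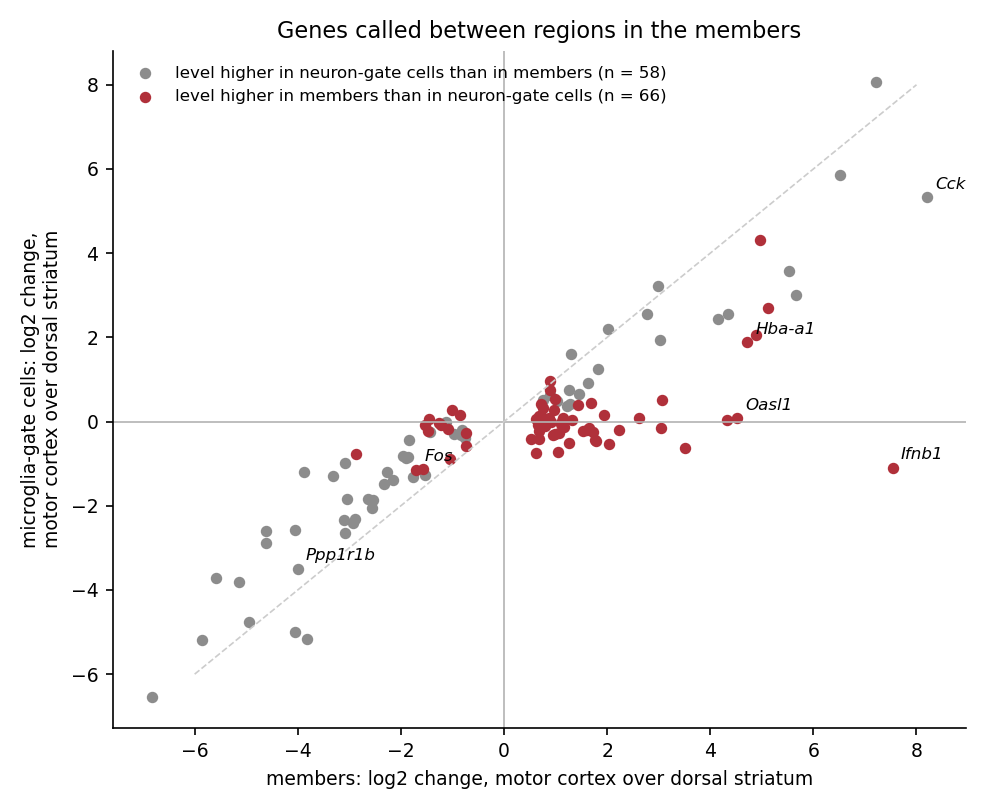
Log2 change between regions in members (x axis) against the same change in microglia-gate cells (y axis) for the 124 called genes tested in both. The dashed line marks equal change. Genes whose level was higher in neuron-gate cells are grey (58), and 47 of the 66 others (red) changed by less than 0.5 in microglia.

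The region calls named above kept their sign under every alternative run, apart from Stmn1; Hsph1 and the globins were not followed here. With at least 2000 UMIs and 1000 genes a cell, 3 striatum pools fell under 20 members and 11 genes were called. Ifit1, Rsad2, Hmox1, Cxcl10, Ccl8, C4b, Isg15 and Ccl4 each lost their call in that setting, and Cd209f, Oasl1 and Fos did not. Ccl3, Wfdc17, Dnajb1, Hspa1a, Hspa1b and Hspb1 were among the others that lost theirs in it. With sequencing batch as a random block, Rsad2 and Hspb1 lost their calls too. Without motor cortex control pool 1, 130 genes were called, of which 114 were shared with the 137. The calls of Folr2, Ednrb, Pltp, Timp2, Ccr1 and Hsp90aa1 were lost without it.

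Cells with a Lyve1 UMI were more frequent in motor cortex. After thinning, the share was 46.8% and 31.4% of members in control, 41.7% and 33.8% in early and 43.9% and 34.6% in late motor cortex pools. In striatum it was 19.4% and 13.3%, 25.8% and 20.9%, and 20.0% and 26.0%. No striatum pool reached the lowest motor cortex pool, and the means of 38.7% ± 6.26 and 20.9% ± 4.70 (SD, n = 6 pools each) differed by 17.8 percentage points (exact permutation test, two-sided, p = 0.00216, adjusted 0.00433). Without thinning, pools ran from 46.5% to 69.8% and from 26.7% to 46.0%. Without motor cortex control pool 1 the shares differed by 16.2 points (exact permutation p = 0.00433). In microglia the thinned share was 0.0148%. The summed level, in contrast, overlapped between regions, from 452 to 723 CPM against 211 to 498 CPM, and missed the threshold over all genes (log2 change 0.66 ± 0.18 SE, edgeR adjusted p = 0.0543). Within batches the level differed by 0.37 and -0.07.

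Other genes were counted in members with and without Lyve1. Cd163 was found in 22.5% of 285 members with a thinned Lyve1 UMI and in 19.4% of 541 without, Ms4a7 in 61.1% and 58.0%, Cd209f in 20.4% and 11.3%, and Folr2 in 29.5% and 19.6%. These shares pool cells of all pools and are descriptions.

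MHC class II was rare. After thinning, 16 of 826 members (1.94%) had a UMI of H2-Aa, H2-Ab1 or H2-Eb1, and in 4 of 12 pools none did. The pool means were 1.77% ± 1.71 in motor cortex and 3.16% ± 3.56 in striatum (SD, n = 6 pools each), a difference that did not pass (exact permutation test, p = 0.487), nor without motor cortex control pool 1 (-1.04 points, exact permutation p = 0.675). H2-Aa was in 1.21% of members and 0.171% of microglia. Cd74, the invariant chain, was in 7.02% of members and 12.1% of microglia, and lay between 31.7 and 940 CPM across pools with the highest value in striatum control pool 1.

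**Figure D5:**
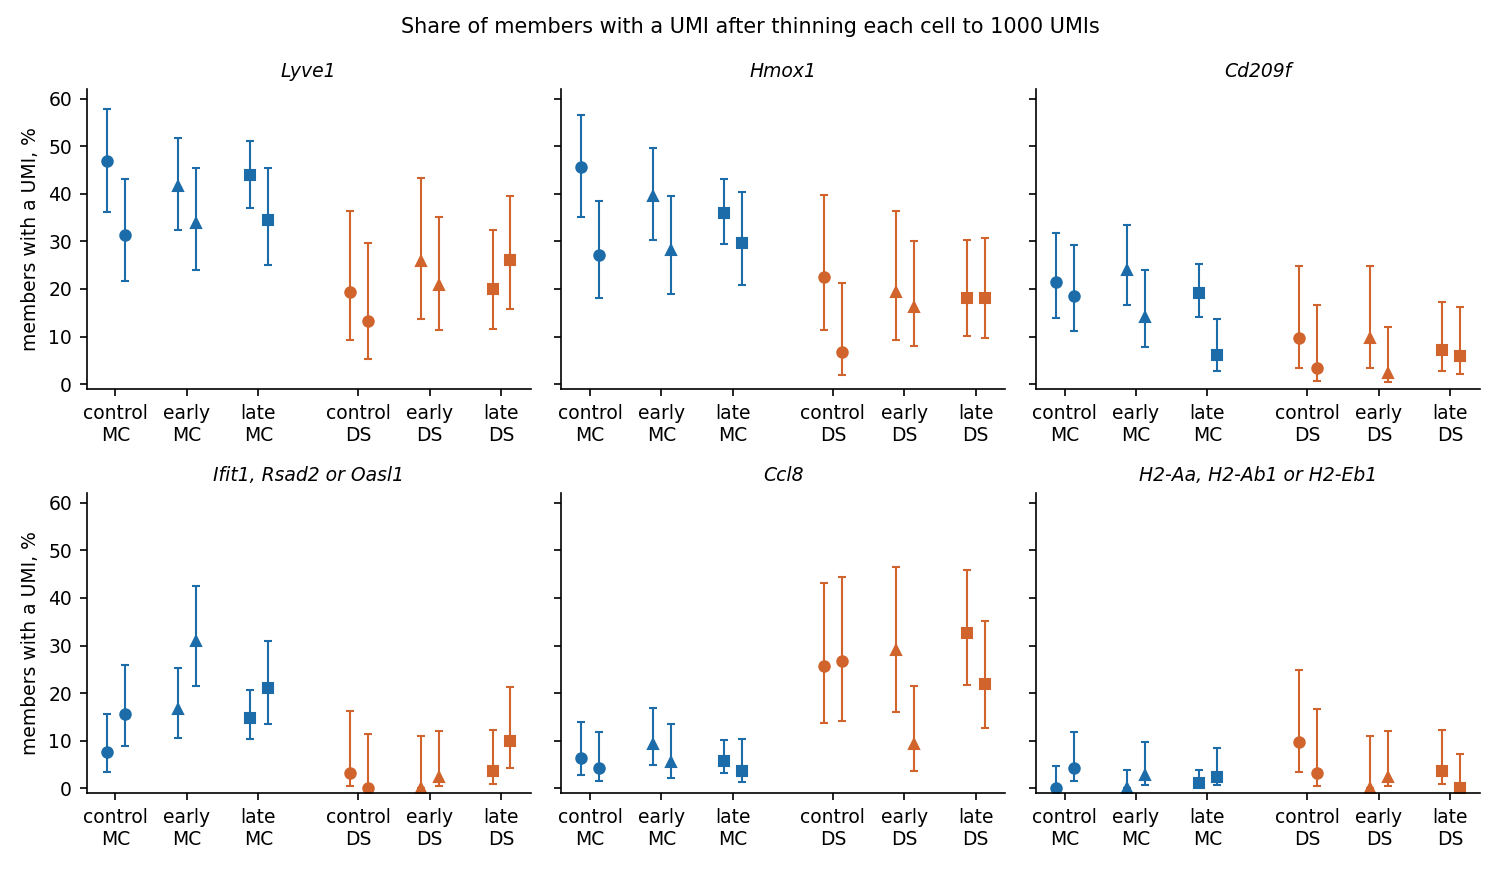
Percentage of members with at least 1 UMI of the genes named above each panel after thinning each cell to 1000 UMIs, by pool, with Wilson 95% intervals (counting error only); MC is motor cortex and DS dorsal striatum. Lyve1, Hmox1 and the interferon genes sit higher in motor cortex and Ccl8 higher in striatum, while MHC class II stays below 10% in all pools.

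Training left few calls in the members. In motor cortex, early against control called 4 of 3276 genes (0.122%), and all were globins. Late against control called 2 (0.0611%), Hba-a2 and Hbb-bt, and late against early 2 (0.0611%), Hba-a1 and Hba-a2. Hbb-bt had no UMI in motor cortex control members and stood at 492 and 1275 CPM in early, and at 1076 and 0 CPM in late pools. Of all globin UMIs, 97.3% came from 3 cells, all in ipsilateral hemispheres, in which globins made up 70.4%, 32.1% and 31.1% of the UMIs, and Scrublet marked 2 of the 3. Without these cells none of the 3 comparisons had a call. Without motor cortex control pool 1 they had 4, 2 and 5. The interferon gene Ifit1 was higher in both early pools than in both control pools (log2 change 1.74 ± 0.46 SE), but the edgeR adjusted p was 0.524.

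In striatum, early against control and late against control called 0 genes each (0%), with 240 and 204 genes at an unadjusted p below 0.05 in edgeR. DESeq2 called 0 and 2. Late against early called 11 (0.336%), 2 higher in late. Early and late striatum pools were in different sequencing batches. With batch as a random block, or without kit class in the model, none of these calls was kept. Eif4e, the cap-binding translation factor, stood at 222 and 199 CPM in early and 727 and 1284 CPM in late pools (2.40 ± 0.44 SE, edgeR adjusted p = 0.0382), and was called in 15 of 23 alternatives. Trim25, a ubiquitin ligase of the RIG-I pathway, stood at 77.6 and 79.7 CPM in early and 94.8 and 337 CPM in late pools (2.06 ± 0.42, adjusted p = 0.0457 by edgeR), and was called in 9 of 22. Control pools of Eif4e lay at 757 and 304.5 CPM, across the same range.

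The 9 genes lower in late striatum members each had a higher mean in striatal neuron-gate cells (554 to 3543 CPM) than in any striatum member pool. They were Ppp3ca, Gria2, Arpp19, Atp2a2, Arpp21, Meis2, Pja2, Tac1, the precursor of substance P (-4.91 ± 0.79 SE), and Pde10a, a phosphodiesterase of projection neurons (-3.06 ± 0.54). The last 2 stood at 1924 and 1566 CPM in those neurons, and the part of neuronal RNA in these calls was not tested. When members with Snap25 or Syt1 UMIs were left out, 1 gene, Eif4e, was called in this comparison. The region by stage terms, which ask whether early or late against control differed between motor cortex and striatum, called 0 genes each with edgeR, with 304 and 131 at an unadjusted p below 0.05.

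Between hemispheres of trained pools, contralateral to the trained limb against ipsilateral, 4 of 1816 genes (0.22%) were called, the 4 globins, all lower on the contralateral side. Without the 3 globin-rich cells 0 were called.

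Reporter features were sparse in members. The tdtomato feature had no UMI in any thinned member (0 of 826). The wpre feature, which the reporter transcript carries, had one in 6.66% of members, 3.23% of microglia and 6.73% of neurons after thinning. In the region comparison wpre was called higher in motor cortex members, at 46.6 to 339 CPM against 23.9 to 66.5 CPM with overlapping pools (log2 change 1.26 ± 0.31 SE, edgeR adjusted p = 0.0230), and in microglia it was not (-0.52). Within the shared batches it differed by 1.61 and -0.17.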

How the data were processed

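Raw UMI counts per gene and cell barcode, as the authors deposited them, were used without change. Per the submitters' processing notes they were made with Cell Ranger 3.1.0 on GRCm38, and per the file headers with software version 3.0.2. The annotation and the way cells were called are not given in the sources used here. The members, the gene lists and the tests were chosen with earlier results of these data known.

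Member UMIs were summed per pool (at least 20 members) and tested with edgeR 4.0.16 (TMM, filterByExpr, quasi-likelihood F test, Benjamini-Hochberg adjustment over all genes), with the 6 region and stage groups and kit class as terms over 12 pools and 5 residual degrees of freedom. The kit version is not stated per library, and kit class was called from barcodes shared between libraries: per 1e6 barcode pairs a median of 1.32 within class A, 0.254 within class B and 0.0206 between, with ranges of 0.789 to 1.75, 0.0360 to 0.565 and 0 to 0.437, the last 2 overlapping. Class A holds 1 control and 1 late pool of each region and no early pool, so class is unbalanced over stages. The SE of a fitted log2 change was worked back from the F statistic of its test and is not a standard error of the fitted coefficient. Hemispheres were compared per library with the pool as a block in 8 trained pools. Shares were compared by exact permutation. Neuron-gate cells had Snap25 and Syt1 at 5 UMIs or more and no Csf1r, Mrc1 or Pf4. Doublets were scored with Scrublet in scanpy 1.11.5 (the top 0.8% per 1000 barcodes) and kept. Named genes were at most 10 called genes of smallest adjusted p without overlap of pools in a comparison, called genes and the 4 most abundant of each list, and the 20 genes furthest above and 10 furthest below microglia. In simulated counts, 2-fold changes were recovered in 97% of 200 genes between regions and in 17% to 45% between stages. The changed genes were drawn from those at 200 CPM or more. Their spread followed the trend over genes, without kit or batch effects. Recovery of less abundant genes was not tested. The alternatives tried were DESeq2 1.42.0, RLE scaling, testing all genes whatever their counts, leaving the kit term out, batch as a random block in limma 3.58.1, doublets left out, stricter gates and filters, single regions and each pool left out. Results for a few genes are not reported here.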

Additional observations from a re-analysis of the deposited data

Results flagged for a closer look

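In 9 of 94 groups of 6 pools examined for named genes, 1 pool stood apart from the rest by more than Dixon's 95% critical value of 0.625 of the range. In all 9 it was the highest pool. For independent normal values chance gives about 1 in 20 groups. CPM need not be normal and the genes were picked from calls, so nothing is read from 9 of 94 against that rate. In motor cortex, Ppp1r1b stood at 83.7 CPM in control pool 1 (next 14.7), Meis2 at 35.3 CPM in the same pool (next 16.9), Ccl8 at 215 CPM in early pool 2 (next 106), Ccl4 at 14538 CPM in early pool 2 (next 8914), Ccl6 at 96.4 CPM in late pool 1 (next 44.2), Ccr1 at 548 CPM in late pool 2 (next 372) and Hsp90aa1 at 3749 CPM in late pool 2 (next 1995). In striatum, Oasl1 stood at 88.3 CPM in late pool 2 (next 26.1) and Ednrb at 238 CPM in control pool 2 (next 144).

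The log2 ratio of members to microglia-gate cells moved in opposite directions from control to late in the 2 regions, a contrast picked out after the pools were seen not to overlap. The change was -0.612 in motor cortex and 1.05 in striatum, a difference of -1.66, with late and control pools not overlapping in either region. The exact permutation test over 36 arrangements gave p = 0.0556, the smallest it can give, so the difference did not pass and could not have.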

How the results depend on the processing

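The region comparison called 137 genes, 59.1% of them higher in motor cortex. It called 294 without a filter on low counts (74.5% higher), 90 without kit class (48.9%), 77 without doublets, 65 with the stricter gate, 11 with the stricter cell filter, 60 without Snap25 or Syt1 cells, 47 in kit class B pools, and 108 to 167 with 1 pool left out. For motor cortex, early against control (4 calls) gave 15 without the filter, 0 with DESeq2, without kit class, doublets, globin-rich cells or Snap25 or Syt1 cells, and 4 to 13 with a pool left out. Late against control (2 calls) gave 21 without the filter, 1 with the stricter gate, 0 with DESeq2, without kit class, with the batch block, with the stricter cell filter and without globin-rich or Snap25 or Syt1 cells, and 2 to 20 with a pool left out. Late against early (2 calls) gave 8 without the filter, 0 with DESeq2, without kit class, without doublets, with both stricter settings and without globin-rich or Snap25 or Syt1 cells, and 0 to 7 with a pool left out. For striatum, early against control (0 calls) gave 10 without the filter, 2 without doublets, 3 on striatum pools alone and 0 to 2 with a pool left out. Late against control (0 calls) gave 10 without the filter, 2 with DESeq2, 4 on striatum pools alone and 0 to 4 with a pool left out. Late against early (11 calls) gave 40 without the filter, 4 with DESeq2 and without doublets, 28 on striatum pools alone, 1 without Snap25 or Syt1 cells, 0 without kit class, with the batch block and with both stricter settings, and 0 to 24 with a pool left out. Hemispheres (4 calls) gave 13 without the filter, 0 with DESeq2, without doublets and without globin-rich cells, and 2 to 4 with a pool left out. The cause was not tested, except that removing cells or pools leaves fewer counts.

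With 1 pool left out, the share of members differed by 0.633 to 0.780 points, the log2 ratio to microglia by 0.198 to 0.627, the Lyve1 share by 16.2 to 19.3 points and the MHC class II share by -2.02 to -0.0874 points. The MHC class II difference turned to 0.978 in kit class B pools. Other reversals were Hbb-bs in motor cortex early against control without globin-rich cells (-0.62), Hbb-bt in late against control without motor cortex late pool 1 (-0.82), Arpp19 in striatum late against early (0.00504) and Stmn1 between regions (-0.37), both without Snap25 or Syt1 cells, and Hba-a1 between hemispheres with DESeq2 (1.00). Of 1359 recomputed values of single genes, 1029 kept direction and call, 325 lost the call and 5 reversed. As for pairing by pool number: No paired analysis was possible because the numbers follow accession order and tie no mice across stages or regions. Pairing by batch and by pool was possible and was made. Sequencing batches hold 2 pools each, and only 2 of the batches hold pools of both regions. Batch as a random block gave 156 calls between regions, with a negative fitted correlation within batches (-0.173). The hemispheres were compared with the pool as a block. Leaving out globin-rich cells or Snap25 or Syt1 cells and using kit class B pools alone were chosen after seeing the data.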
